A study of Mus musculus with 4 samples.

Results

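The 8 genes described here encode surface receptors of myeloid cells and were followed across liver RNA pools of mice whose cecum had been infused with a short-chain fatty acid or with phosphate-buffered saline. They were the C-type lectin receptor genes Clec4a1, Clec4a3, Clec4d, Clec4e, Clec7a and Clec12a, the sialic acid receptor gene Siglece, and Cd72. All 8 were found among the 18820 genes of the array with their own symbol, each through 1 probe set. The genes were chosen by reference to array values of these same pools, where Siglece, Clec4a1 and Clec4a3 had stood among the highest ratios of butyrate to control, so every difference given here describes the pools that helped to choose the genes and none has a test.

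The acid pools came from mice infused with sodium [1-13C]acetate (6 mice), sodium [2-13C]propionate (6 mice) or sodium [2,4-13C2]butyrate (4 mice), each at 0.3 M, and the control pool from 6 mice given phosphate-buffered saline. All were male C57Bl/6J mice aged 16 to 17 weeks, fed a semi-synthetic palm oil diet and fitted with a permanent catheter in the cecum. The infusion ran at 0.2 ml/h for 6 h, which for the acids amounted to 2.4 mmol/h/kg. Equal amounts of liver RNA were pooled within a group and each pool was hybridised to 1 array, so there is no spread between mice and no replicate check.

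C-type lectin receptors and Siglecs read sugars, lipids and debris at the surface of macrophages, monocytes, neutrophils and dendritic cells. Some activate the cell through tyrosine-based motifs and the kinase Syk, either in their own tail or in the partner chain encoded by Fcer1g, and pass the signal to the adaptor Card9. Others carry inhibitory motifs that recruit the phosphatases encoded by Ptpn6, Ptpn11 and Inpp5d. In the liver the main resident myeloid cells are Kupffer cells, which line the sinusoids and meet what the portal blood brings from the gut.

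Tissue markers differed in level between the pools. All 9 measured hepatocyte markers, such as Alb and Ttr, lay far above the level floor in every pool, with mean log2 levels of 12.8, 12.8, 12.7 and 12.8 in the acetate, propionate, butyrate and control pools. The level floor, 5.55 on the log2 scale, is the median of all genes' mean levels. Skeletal muscle markers had a mean log2 level of 4.96 in the butyrate pool, against 6.77 in the control pool (median log2 ratio -1.77). Intestinal epithelium markers had 6.46 against 5.50, but a median log2 ratio of 0.36. Most of that mean difference came from Muc2 (2.98), Lypd8 (2.97) and Car1 (1.90). Pancreatic acinar markers were below control in all 3 acid pools, by medians of -0.90, -0.63 and -0.32 on the log2 scale. Olfactory and vomeronasal receptor genes, which the liver does not use, serve as a guide to the scatter between arrays: over 1157 of them the log2 ratios had an SD of 0.16 (acetate), 0.18 (propionate) and 0.17 (butyrate) against control.

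Siglece, Clec4a1 and Clec4a3 were 2.01-fold to 2.06-fold higher in the butyrate pool than in the control pool and were nearly level with control in the acetate pool. Propionate lay between. Clec12a was also highest with butyrate and second with propionate, at smaller size, Cd72 was highest with propionate, and Clec7a went the other way, highest with acetate and lowest with butyrate. Clec4d and Clec4e lay below the floor in all 4 pools.

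**Figure D1:**
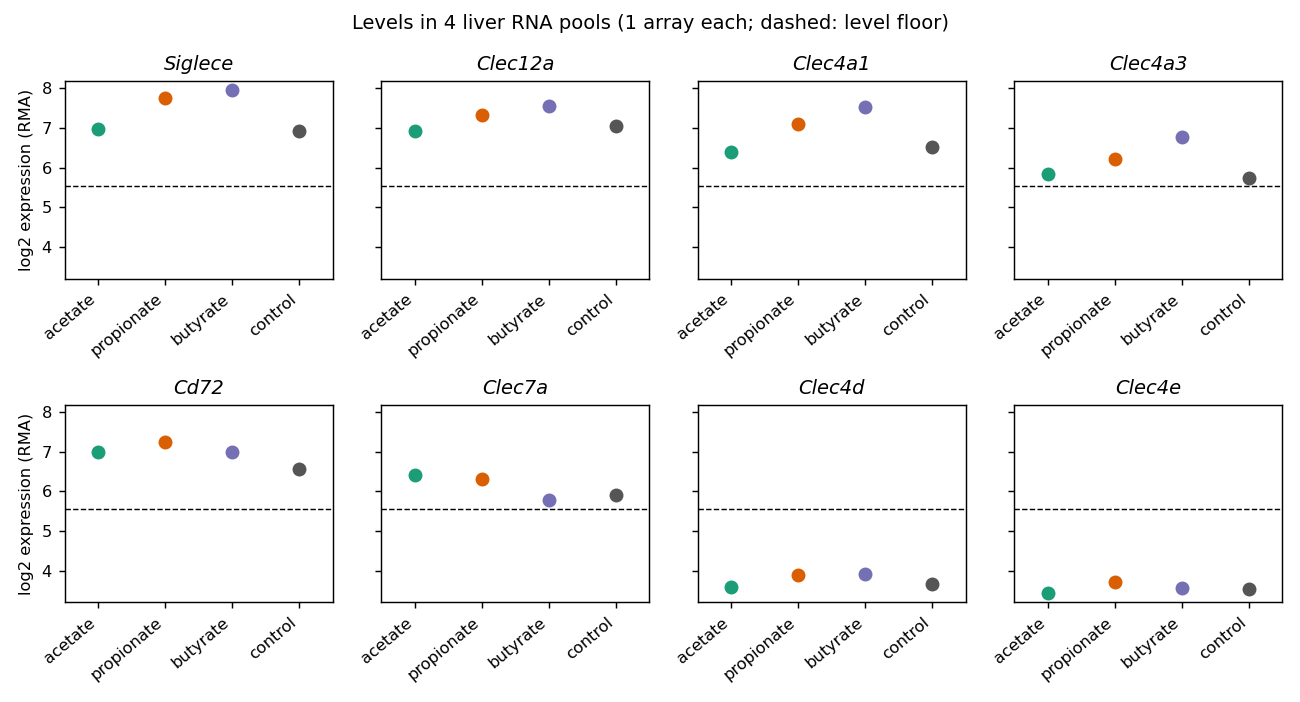
Log2 expression values (RMA, vertical axis) of the 8 receptor genes in the acetate, propionate, butyrate and control pools (horizontal axis), 1 array each, so no error bars; the dashed line is the level floor of 5.55. Siglece reaches 7.95 with butyrate against 6.91 in control, and Clec4d and Clec4e stay below the floor in every pool.

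Among the inhibitory receptors, Siglece, which binds sialic acids on neighbouring cells and dampens myeloid activation, had log2 levels of 6.96, 7.75 and 7.95 in the acetate, propionate and butyrate pools and 6.91 in the control pool. The propionate and butyrate pools stood well above the acetate and control pools, and the values within each pair lay 0.21 and 0.05 apart. With butyrate Siglece was 2.06-fold above control (log2 ratio 1.04), and 11 of the 9410 genes at or above the floor, itself included, had a ratio that high. With propionate it was 1.79-fold above control (0.84), a ratio reached by 18 genes, and with acetate it stood at 0.05.

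Clec12a, an inhibitory receptor that senses uric acid crystals and dead cells, had log2 levels of 6.92, 7.32 and 7.54 with acetate, propionate and butyrate and 7.04 in control. Its log2 ratios to control were -0.11, 0.28 and 0.50, the last a 1.42-fold difference. The order of the pools was that of Clec4a1, with control above acetate, but the acetate and control pools were closer together than the array scatter.

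Clec4a1 and Clec4a3 belong to the dendritic cell immunoreceptor group of lectin receptors. Clec4a1 had log2 levels of 6.39, 7.09 and 7.53 with acetate, propionate and butyrate, against 6.52 in control. Clec4a3 had 5.83, 6.21 and 6.77, against 5.75 in control. Both had butyrate highest and propionate second, and for both the acetate and control pools lay closer together than the array scatter. Against control, Clec4a1 was 2.01-fold and Clec4a3 2.04-fold higher with butyrate, and 1.49-fold and 1.38-fold with propionate. Over the 3 ratios to control they were the second closest pair among the 8 genes, at a Euclidean distance of 0.24. Short probes can cross-hybridise within this group, so the pair may not be 2 separate measurements.

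Cd72, an inhibitory coreceptor of B cells that is also found on macrophages, had log2 levels of 7.00, 7.25 and 7.00 with acetate, propionate and butyrate, against 6.56 in control. All 3 acid pools were above control, by log2 ratios of 0.44, 0.69 (1.61-fold) and 0.43. The acetate and butyrate pools differed by less than 0.01. Of 9 measured B cell markers, Cd79b, a chain of the B cell receptor, alone had a mean level at or above the floor. It lay above control in all 3 acid pools and highest with propionate (0.24, 0.35 and 0.33). Of the 9 markers, 7, 4 and 6 were below control with acetate, propionate and butyrate. The median log2 ratios of the 9, 8 of them below the floor, were -0.07, 0.04 and -0.08. H2-Aa, an MHC class II gene of antigen-presenting cells, was the gene whose 3 ratios lay nearest to those of Cd72 (0.42, 0.63 and 0.53, at a distance of 0.12).

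Among the activating receptors, Clec7a encodes Dectin-1, the receptor for fungal beta-glucans that signals through Syk and Card9. Its log2 levels were 6.42, 6.32 and 5.79 with acetate, propionate and butyrate, against 5.91 in control. The acetate and propionate pools lay 0.11 apart and above the other pair, which lay 0.12 apart. Against control Clec7a was 1.43-fold higher with acetate (log2 ratio 0.51) and 1.33-fold with propionate (0.41), while butyrate stood at -0.12. The gene with the nearest ratios was the cell cycle inhibitor Cdkn1a, at 0.57, 0.36 and -0.13. Clec7a lay farthest from Siglece among all pairs of the 8 genes, at a distance of 1.33 over the 3 ratios.

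Clec4d and Clec4e encode MCL and Mincle, receptors for microbial glycolipids that pair with the Fcer1g chain. Clec4d had log2 levels of 3.59, 3.89 and 3.93 with acetate, propionate and butyrate, against 3.65 in control, and Clec4e had 3.43, 3.71 and 3.56, against 3.53. These are values near background, and the largest ratios to control were 0.27 for Clec4d (butyrate) and 0.18 for Clec4e (propionate). Neither gene reached 1.5-fold in any of the 6 comparisons of pools.

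Counted together, 0 of the 6 genes at or above the floor were at least 1.5-fold (0.58 on the log2 scale) above control with acetate, where 0.627% of the 9410 genes at or above the floor were. With propionate 2 of 6 were (Siglece and Cd72), against 0.701% of genes, and with butyrate 3 of 6 (Siglece, Clec4a1 and Clec4a3), against 0.755%. None was 1.5-fold lower in these comparisons, where 0.510%, 0.404% and 0.361% of genes were. Over all 8 genes the median log2 ratios were -0.005, 0.43 and 0.47, while the medians over all 18820 genes were 0.002, -0.007 and -0.003. Without the Clec4a pair, 1 gene was left with butyrate, and against the average of the remaining 3 pools 0 genes passed with propionate. The genes were picked with these ratios known, so nothing is read from the counts.

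**Figure D2:**
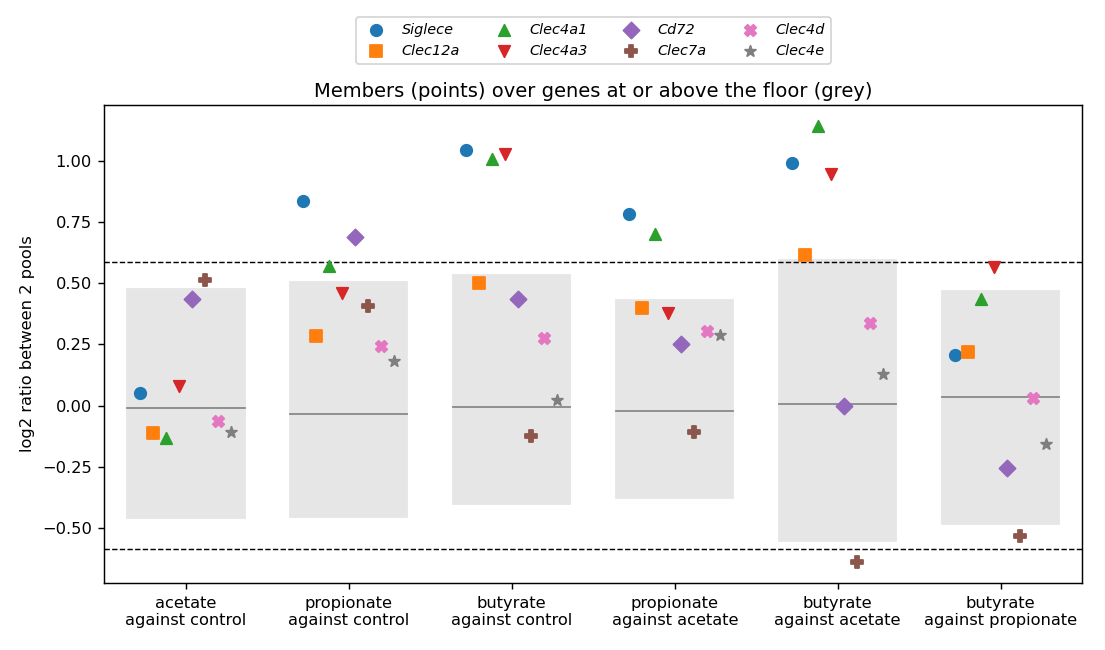
Log2 ratios (vertical axis) of the 8 receptor genes in the 6 comparisons of pools (horizontal axis); grey boxes span percentiles 1 to 99 of the 9410 genes at or above the floor, with their median as a line, and dashed lines mark 1.5-fold. Siglece, Clec4a1 and Clec4a3 lie above the grey box with butyrate against control and against acetate, and Clec7a lies below it in the comparisons of butyrate with acetate and with propionate.

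The 3 acids differ in chain length, from acetate, the shortest, to butyrate, the longest, and were given at the same molar rate and time, so their pools can be set side by side in 3 pairs. These ratios draw on the same arrays as those to control and add no independent measurement. Butyrate against acetate gave the widest differences: Clec4a1 was 2.20-fold higher (log2 ratio 1.14), Siglece 1.99-fold (0.99), Clec4a3 1.93-fold (0.95) and Clec12a 1.53-fold (0.61). Clec7a was lower, by a log2 ratio of -0.64. That made 4 of 6 genes at least 1.5-fold higher, against 1.05% of genes, and 1 of 6 lower, against 0.850%.

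Propionate against acetate had 2 of 6 genes at least 1.5-fold higher, Siglece (1.72-fold) and Clec4a1 (1.63-fold), against 0.414% of genes, and none lower, against 0.138%. Clec7a stood at -0.11. Between butyrate and propionate no member passed 1.5-fold in either direction, where 0.351% of genes were higher and 0.606% lower. The largest ratios there were those of Clec4a3 (0.57), Clec7a (-0.53) and Clec4a1 (0.44), while Siglece stood at 0.21 and Cd72 at -0.25. With 1 array for each acid no interval can be put on any of these differences, so ratios near 0 do not show that acids acted alike.

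Of the 8 genes, 6 lie on chromosome 6, Siglece on chromosome 7 and Cd72 on chromosome 4. In RefSeq's gene order (GRCm38.p6) Clec4a1, Clec4a3, Clec4d and Clec4e lie in a run of 9 protein-coding genes, all measured here. Of the 5 others in that run, Clec4n, which encodes Dectin-2, a receptor for fungal mannans, was the only gene at or above the floor. It had log2 levels of 5.63, 6.81 and 6.08 with acetate, propionate and butyrate, against 5.83 in control, so propionate was highest, with a ratio of 0.98, and butyrate stood at 0.25. Clec4a2, the neighbour that encodes an inhibitory receptor of the same group, was below the floor, with ratios of -0.02, 0.69 and 0.66. Clec4a4, Clec4b1 and Clec4b2 had log2 levels of 2.49 to 3.36 over all pools, near the bottom of the scale.

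**Figure D3:**
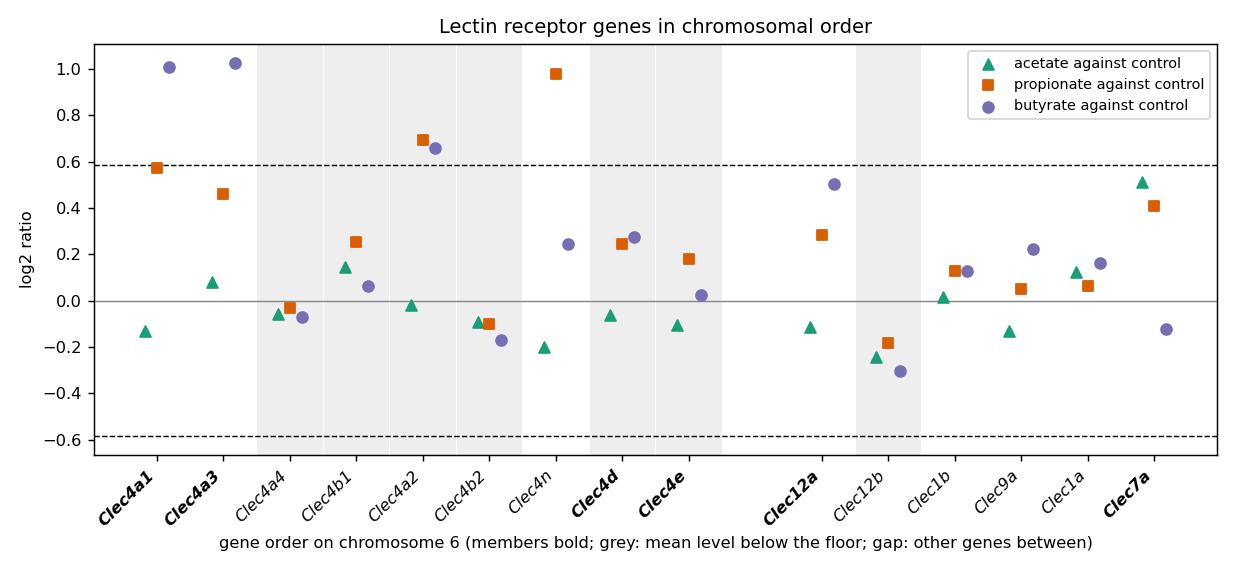
Log2 ratios to control (vertical axis) of the lectin receptor genes in their order on chromosome 6 (horizontal axis), for the acetate, propionate and butyrate pools; members are in bold, genes with a mean level below the floor are shaded grey, the gap stands for other genes, and dashed lines mark 1.5-fold. Clec4a1 and Clec4a3 are highest with butyrate, Clec4n with propionate and Clec7a with acetate.

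Clec12a and Clec7a close a second run of 6 genes on the same chromosome. The 4 between them, Clec12b, Clec1b, Clec9a and Clec1a, had log2 ratios to control of -0.30 to 0.22 over the 3 acids, and none passed 1.5-fold. At the ends of this run, butyrate was highest for Clec12a and lowest for Clec7a. In the first run, the neighbours Clec4a1 and Clec4a3 both had butyrate highest and propionate second, while Clec4n had propionate highest.

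Upstream sequences of 4 genes are shown because the Clec4a pair, Siglece and Clec7a had the contrasting patterns above. They are the 250 bases before the annotated start, from RefSeq (GRCm38.p6), written 5′ to 3′ on the gene's strand, with GAGGAA or its reverse complement TTCCTC in capitals. GAGGAA is a purine-rich core that the myeloid transcription factor PU.1 can bind.
Clec4a1, chr6:122921598-122921847 (+ strand): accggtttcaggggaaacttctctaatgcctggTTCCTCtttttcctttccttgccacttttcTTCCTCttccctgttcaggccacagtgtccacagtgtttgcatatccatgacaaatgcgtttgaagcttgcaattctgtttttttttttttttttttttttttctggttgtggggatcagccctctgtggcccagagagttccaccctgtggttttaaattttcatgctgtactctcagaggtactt
Clec4a3, chr6:122952394-122952643 (+ strand): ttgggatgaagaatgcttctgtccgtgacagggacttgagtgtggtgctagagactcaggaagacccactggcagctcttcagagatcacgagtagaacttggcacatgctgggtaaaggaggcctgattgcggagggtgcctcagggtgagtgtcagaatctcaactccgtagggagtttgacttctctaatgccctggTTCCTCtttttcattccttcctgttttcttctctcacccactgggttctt
Siglece, chr7:43660162-43660411 (- strand): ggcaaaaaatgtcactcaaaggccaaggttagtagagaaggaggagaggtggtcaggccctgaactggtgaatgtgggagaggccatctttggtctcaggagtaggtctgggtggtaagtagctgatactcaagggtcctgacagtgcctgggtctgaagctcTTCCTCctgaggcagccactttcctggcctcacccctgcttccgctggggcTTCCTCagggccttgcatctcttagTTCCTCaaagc
Clec7a, chr6:129472780-129473029 (- strand): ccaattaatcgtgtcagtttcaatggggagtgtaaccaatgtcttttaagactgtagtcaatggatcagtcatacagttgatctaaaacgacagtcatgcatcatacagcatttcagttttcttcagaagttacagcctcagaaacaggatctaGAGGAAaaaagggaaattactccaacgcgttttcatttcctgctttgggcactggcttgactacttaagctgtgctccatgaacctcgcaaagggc
Clec4a3 and Clec7a have 2 annotated starts each, and the sequence before the downstream start is shown. The upstream window of Clec4a3 held no match, and the windows of Clec7a overlap over nearly their whole length.

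RefSeq windows of 250 bases before to 50 after the start were found for all 8 genes, and on both strands GAGGAA was present in at least 1 window of 8 of 8. Of 27025 genes with such windows, 31.3% held it, and of all 32851 windows 28.3%. Siglece had 3 matches, beginning 87, 36 and 11 bases before the start, and Clec7a had 1, at 96 bases. Before the start, Clec4a1, Clec4e and Clec12a had 2 each. Clec4d, Cd72 and, at its downstream start, Clec4a3 had 1 each. Clec4d, near background in all pools, had further matches after the start, at bases 8 and 40. The longer form GAGGAAGT, which contains GAGGAA, was found only for Cd72, 49 bases before its start, and in 3.69% of all genes. TATAAA was found for Clec4e, 29 bases before its start. For Clec7a it lay after the start, at base 43, as the reverse complement TTTATA and outside the sequence shown. Of all genes, 15.7% held it. Any part of these matches in the pool values was not tested. These are matches of letters, not sites shown to be bound.

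The windows of Clec4a1 and Clec4a3 shared a run of 17 bases, cctggttcctctttttc, which holds the TTCCTC match and begins 222 bases before the start of Clec4a1 and 55 before that of Clec4a3. The longest run shared by any other pair of the 8 genes had 12 bases.

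Other genes of these receptor systems were described by lists. Of 22 other C-type lectin receptors of myeloid cells, all measured and 9 at or above the floor, 0, 3 and 2 were at least 1.5-fold higher with acetate, propionate and butyrate, and 0 were lower with any acid. Over all 18820 genes, 0.696%, 0.776% and 0.728% were higher and 0.494%, 0.489% and 0.616% lower. The medians were -0.006, 0.11 and 0.08. The 3 with propionate were Clec4n, Clec4a2 and Cd209f (2.20), a macrophage lectin whose log2 levels were 3.43, 5.62 and 3.28 with acetate, propionate and butyrate and 3.42 in control. The 2 with butyrate were Cd207 (0.72), the lectin langerin of Langerhans and some dendritic cells, and Clec4a2. Clec4f, a lectin of Kupffer cells, stood at -0.25, -0.10 and 0.09, and the mannose receptor Mrc1 at -0.06, 0.01 and 0.25.

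Of 8 other Siglec-family receptors none passed 1.5-fold with any acid, and 2 had a mean level at or above the floor. Siglec1, the sialoadhesin of macrophages, stood at -0.24, -0.04 and 0.20 and Cd33 at 0.09, 0.16 and 0.17. Siglecf, a receptor of eosinophils and below the floor, had the largest ratios, 0.51 and 0.52 with acetate and propionate. Siglece, chosen with these ratios known, had a larger ratio than each of them with propionate and butyrate, from which nothing is read.

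Of 12 activating adaptors and signalling genes 10 were measured, 7 of them at or above the floor. Fcer1g, the signalling chain of Mincle and MCL, had log2 levels of 8.46, 8.86 and 9.07 with acetate, propionate and butyrate, against 8.15 in control. All 3 acid pools lay above control, and butyrate was 1.89-fold higher (0.91) and propionate 1.63-fold (0.70). Tyrobp, the partner chain DAP12, stood at 0.04, 0.50 and 0.41 and Syk at 0.15, 0.52 and 0.26. Card9, below the floor, was at 0.67 with propionate. Thus 2 of 10 genes passed 1.5-fold with propionate and 1 with butyrate, against 0.776% and 0.728% of all genes, and the list's medians were 0.08, 0.29 and 0.23.

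The 3 inhibitory phosphatases had smaller ratios. Inpp5d (SHIP1) was at 0.08, 0.18 and 0.37, Ptpn6 (SHP-1) at -0.05, 0.15 and 0.25, and Ptpn11 (SHP-2), which most cells use, at 0.02, 0.04 and -0.05. None passed 1.5-fold.

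Of 12 cytokines and enzymes that Card9 signalling can induce, 2 had a mean level at or above the floor, Cxcl1 and Il1b. Cxcl1, a neutrophil attractant, had log2 levels of 8.36, 8.90 and 8.63 with acetate, propionate and butyrate, against 7.99 in control. It was highest with propionate (0.91) and passed 1.5-fold with butyrate too (0.64), and Il1b stood at -0.24, 0.15 and 0.28. Below the floor, Tnf (0.81), Ccl3 (0.71) and Ccl2 (0.62) also passed 1.5-fold with propionate, and Ccl3 (0.66) with butyrate, which made 4 of 12 genes with propionate and 2 with butyrate, against the same shares of all genes. Il6 and Il10 had log2 levels of 2.32 to 3.28 in all pools.

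The genes of 3 proteins that members are known to bind were also measured. Sema4d, whose product binds CD72, and Anxa1, an annexin that Dectin-1 can bind, stood at 0.42 and 0.39 with propionate and at 0.08 and 0.001 with butyrate. Sap130, a nuclear protein sensed by Mincle when cells die, was at -0.18, -0.17 and -0.06. None passed 1.5-fold.

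Markers of the cells that carry these receptors differed between the pools as well. In whole-liver RNA more cells of a type and more RNA per cell cannot be told apart. All 14 Kupffer cell markers lay at or above the floor, and their median log2 ratios were -0.15, 0.30 and 0.57 with acetate, propionate and butyrate, with 0, 4 and 6 markers at least 1.5-fold higher, where 0.627%, 0.701% and 0.755% of the genes at or above the floor were. Their summed linear level was 7209, 8886 and 10299 in the acetate, propionate and butyrate pools and 7141 in the control pool. Siglece, Clec4a1 and Clec4a3, chosen with these ratios known, had larger ratios with butyrate than that list's median, and Clec12a a smaller one. Nothing is read from this, and Marco in the list (1.40) lay above all of them. The 4 with propionate were Spic (1.27), a transcription factor of iron-recycling macrophages, the scavenger receptor Marco (0.98), Adgre1 (0.72) and Lyz2 (0.68). The same 4 passed with butyrate, at 0.63, 1.40, 0.76 and 0.75, and so did Cd68 (0.76) and Timd4 (0.70). Clec4f had the lowest ratio of the list with butyrate, 0.09.

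**Figure D4:**
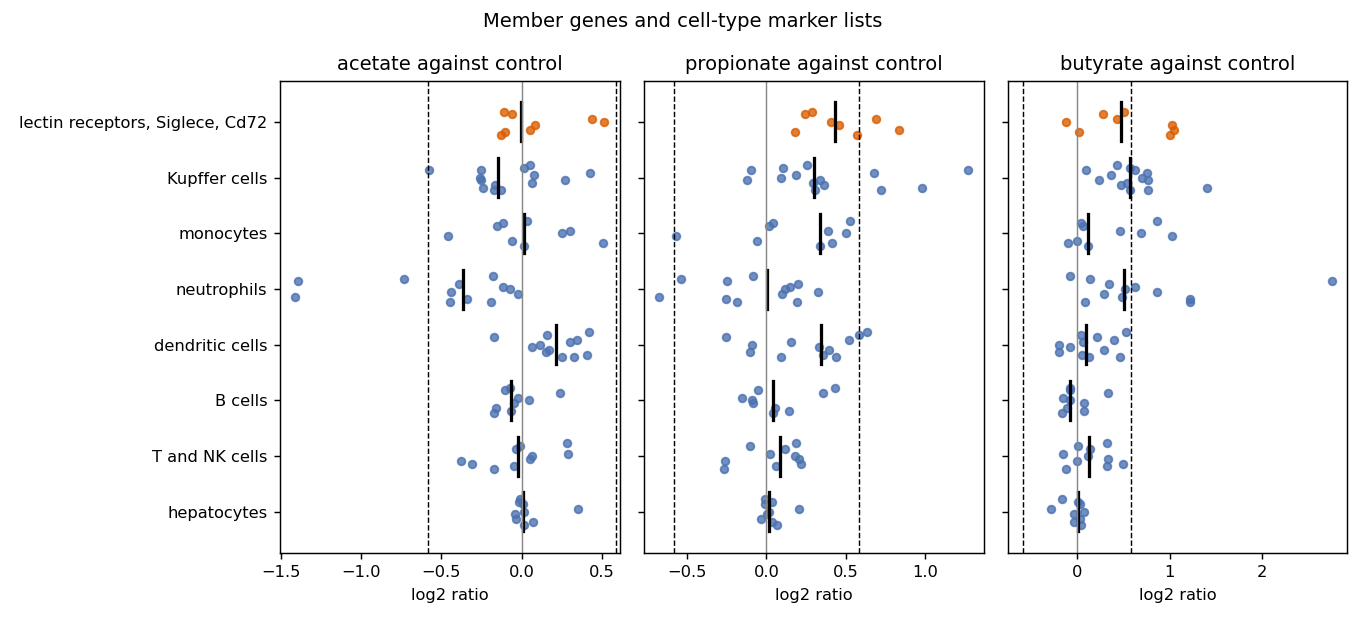
Log2 ratios to control (horizontal axes, which differ in range) of the 8 receptor genes (orange) and of the measured markers of 7 cell types (blue) in the acetate, propionate and butyrate pools; each point is 1 gene, black bars are medians and dashed lines mark 1.5-fold. Medians of Kupffer cell markers are -0.15, 0.30 and 0.57, beside -0.005, 0.43 and 0.47 for the 8 genes.

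Neutrophil markers, of which 12 were measured and 3 had a mean level at or above the floor, had medians of -0.37, 0.01 and 0.50. All 12 were below control with acetate and 11 were above it with butyrate. The medians over all 18820 genes were 0.002 and -0.003 there. At 1.5-fold, 3 were lower with acetate and 1 with propionate, against 0.494% and 0.489% of all genes. With butyrate 5 were higher, against 0.728%. The granule genes Mpo (-1.41), below the floor, and Ngp (-1.39) were lowest with acetate, and Ngp (2.75) was highest with butyrate. The summed linear level of the 12 was 277, 386 and 908 in the acetate, propionate and butyrate pools and 408 in control. Ngp, at a log2 level of 8.54 with butyrate against 5.79 in control, was the largest part of the butyrate sum. Mmp9 (-0.08) and Cxcr2 (0.08), below the floor, stayed near control with butyrate. Monocyte markers, 9 measured and 4 at or above the floor, had medians of 0.01, 0.34 and 0.11. Cd14 (0.86) and Itgam (0.69) passed 1.5-fold with butyrate, and so did Chil3 (1.03), below the floor. That made 3 of 9, against 0.728% of all genes. With butyrate 7 of the 9 were above control and 2 below. Chil3 stood at -0.57 with propionate, and Cx3cr1, below the floor, at 0.51, 0.41 and -0.09 with acetate, propionate and butyrate. The summed linear level of the 9 monocyte markers was 7177, 7226, 7549 and, in control, 7455. Most of it came from Fn1, which hepatocytes also express.

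Dendritic cell markers, 12 measured and 6 at or above the floor, had medians of 0.21, 0.34 and 0.10. H2-Aa stood at 0.63 in the propionate pool. With propionate 9 of the 12 were above control, and Xcr1, Cd209a and Siglech, all below the floor, were below it. The summed linear level of the 12 was 2370, 2529 and 2390 in the acetate, propionate and butyrate pools and 1955 in control. Most of it came from Bst2, Cd74, H2-Aa, H2-Ab1 and H2-Eb1, which other cells also express. T and NK cell markers, 10 measured and 1 at or above the floor, had medians of -0.03, 0.09 and 0.13. Hepatocyte markers had medians of 0.005, 0.02 and 0.006. The summed levels were 195, 216 and 199 with acetate, propionate and butyrate and 193 in control for B cell markers, and 239, 263 and 291 and in control 250 for T and NK cell markers. The part of these cell-type markers in the receptor values was not tested.

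The genes nearest to the receptors as a group were found among 9404 other genes at or above the floor by Euclidean distance to the mean of the 8 genes' log2 ratios to control (0.08, 0.46 and 0.52) over the 4 pools. The nearest was Laptm5, a lysosomal membrane protein of blood cells, with ratios of 0.10, 0.47 and 0.55 at a distance of 0.035. Emilin2, the lipoprotein receptor Tlr2, the oxidase subunit Ncf4, the lysosomal protease Ctss, Tle3, Apbb1ip, the phagosome metal transporter Slc11a1, the oxidase subunit Cybb and the leukocyte phosphatase Ptprc made up the 10, at distances of up to 0.12. Tlr2 had log2 levels of 5.50, 5.84 and 5.99 with acetate, propionate and butyrate, against 5.45 in control.

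Among single genes, Siglece had Ms4a6d nearest (0.14, 0.82 and 0.87, at 0.20), Clec4a1 had Cd14, the coreceptor for bacterial lipopolysaccharide (0.03, 0.53 and 0.86, at 0.23), and Clec4a3 had Igsf6 (0.17, 0.50 and 0.90, at 0.16). Clec12a had B430306N03Rik (-0.12, 0.27 and 0.48, at 0.028). For Clec4d and Clec4e, below the floor, the nearest were Pilrb1 (at 0.031) and Gltp (at 0.006).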

How the data were processed

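Liver RNA of 22 mice in 4 pools was measured on 4 arrays, 1 per group. The authors deposited log2 values for each probe set. Per the submitters' processing notes they came from RMA, which removes background, equalises the distributions of the arrays and combines probes into probe sets. Which RMA version they ran, and with what settings, none of the labels says. Array medians lay between 5.11 and 5.12, so an overall shift of 1 pool would be hidden. Gene names came from GEO's annotation of the platform: of 35556 probe sets, 21218 had 1 gene symbol, 1881 several and 12457 none. Of those with 1, 21185 matched RefSeq by Entrez ID. Means per symbol gave 18820 genes, 9410 of them at or above the floor. Differences of log2 values were taken in 6 comparisons and called at 1.5-fold; with 1 array per group there is no p-value or error, and the number of arrays limits the precision. The calculation was tested on simulated data, in which some genes were changed by a known 2-fold under even noise. That checks the arithmetic only and says nothing of scatter between mice or of smaller differences. Python 3.11.15, pandas 2.3.3, numpy 2.4.6 and, for cyclic loess, limma 3.58.1 were used. The genes, lists and rules were chosen with earlier results of these data known. Named genes were the 8 receptors, the 10 nearest genes by distance, the nearest to each receptor and, of most lists, genes with the largest ratios or at 1.5-fold. Endothelium (8 measured) and red cell (3 measured) lists were also drawn up and are not described above. In each, 1 gene was at least 1.5-fold higher with butyrate, against 0.728% of all genes. Other list genes, such as Clec4f, Mrc1, Siglec1, Cd33, Il6, Il10 and H2-Aa, were named for their role after their values were seen, and of the neutrophil and tissue lists only leading genes are named. Alternatives covered the scaling, threshold, floor, control pool and Clec4a pair. Protein sequences were not used here.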

Additional observations from a re-analysis of the deposited data

How the results depend on the processing

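No paired analysis was possible because each group is 1 pool on 1 array, and no pool could be left out of its own group. Median-centring and cyclic loess moved every median of the 8 genes by less than the array scatter. Median-centring could change little, because the array medians already lay between 5.11 and 5.12. Taking the highest probe set could change nothing for these genes, because each had 1 probe set. The counts stayed as they were, except that with cyclic loess 3 genes in place of 2 were higher for propionate against control, Clec4a1 (0.62) being added. Set against the average of the remaining 3 pools in place of control, the median log2 ratio of the 8 genes was -0.30 with acetate (1 gene, Clec4a1, at least 1.5-fold lower) and 0.24 with propionate (0 genes higher), while butyrate kept 3 genes higher. At a 2-fold threshold 0 genes were higher for propionate against control and against acetate, and 1 higher and 0 lower for butyrate against acetate. At a looser threshold of 0.32 on the log2 scale 2, 5 and 5 were higher than control with acetate, propionate and butyrate, 4 for propionate against acetate, and 2 higher and 1 lower for butyrate against propionate. Shares of all genes were not counted at the 2-fold and looser thresholds, so nothing is read from these counts. For genes at or above the floor, percentile 95 of the ratios to control lay at 0.25, 0.25 and 0.26, and percentile 99 at 0.48, 0.50 and 0.53. With genes at or above the floor the median was 0.76 for butyrate against control and 0.78 against acetate. Without Clec4a1 and Clec4a3, 1 gene (Siglece) was higher for butyrate against control, 1 for propionate against acetate and 2 for butyrate against acetate, with a median of 0.23 there and -0.063 for butyrate against propionate, where the sign turned. The causes were not tested. Background counts grew with more genes tested, from 9410 at or above the floor to 18820 with no floor. As shares, genes higher than control were 0.627%, 0.701% and 0.755% with the floor and 0.696%, 0.776% and 0.728% without, for acetate, propionate and butyrate. Genes lower were 0.510%, 0.404% and 0.361% with the floor and 0.494%, 0.489% and 0.616% without. With no floor and with a floor at the 25th percentile, genes higher and lower numbered 131 and 93, and 125 and 83, for acetate against control; 146 and 92, and 139 and 79, for propionate against control; 137 and 116, and 119 and 97, for butyrate against control; 72 and 40, and 64 and 34, for propionate against acetate; 172 and 180, and 157 and 165, for butyrate against acetate; and 80 and 159, and 68 and 140, for butyrate against propionate.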
